A study of Homo sapiens with 4 samples.

Results

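IRF4, BATF, TCF4, CCND2, CYB5R2, PTPN1 and RHOF are genes whose expression marks or sustains the activated B-cell (ABC) subtype of diffuse large B-cell lymphoma. They were taken by name from the platform's probe annotation, which lists 20 probes for the 7 genes among 15246 probes of the array. A value on all 4 arrays was available for 17 of these probes and for all 7 genes, among 6796 probes and 3589 genes with such values. The other 3 probes, 2 of TCF4 and 1 of RHOF, lacked a value on 1 or more arrays.

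All arrays were 2-colour arrays of the ABC lymphoma line OCI-Ly3, of human origin, which carried a doxycycline-inducible hairpin that targets IKKa, the product of CHUK. Each array compared cells given doxycycline at 20 ng/ml (Cy5) with cells without doxycycline (Cy3). On 2 arrays both channels also had MLN120b, an IKKb inhibitor, at 12.5 uM, present for 3 h at 2 days of doxycycline and for 24 h at 3 days. On the other 2 arrays, of 2 and 3 days of doxycycline, neither channel had the inhibitor. The dyes were never swapped and no array gave doxycycline to cells lacking the hairpin, so dye, doxycycline and hairpin cannot be told apart in a ratio against 0. A constant dye effect of a probe cancels in the difference between arrays with and without inhibitor. The labels do not say whether the line is 1 clone or whether the arrays came from separate cultures.

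In ABC lymphoma, chronic signalling through the IkB kinases keeps NF-kB in the nucleus, and IRF4 is among the genes that NF-kB switches on. IRF4 is a transcription factor that binds DNA weakly alone and pairs with partners, among them the AP-1 family factor BATF, at composite sites, and ABC lines need it for survival. TCF4, an E protein of the helix-loop-helix family, is a second factor associated with this subtype. CCND2 encodes cyclin D2, PTPN1 the tyrosine phosphatase PTP1B, RHOF a small GTPase and CYB5R2 a cytochrome b5 reductase, and these 4 serve as markers of the subtype in expression classifiers.

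Promoter sequences are shown for the transcription factors among these genes, IRF4, BATF and TCF4, because the series asks about a pathway that ends in DNA binding by NF-kB. They are the 250 bases before the annotated start, from RefSeq on build GRCh38.p14, and capitals mark matches, on either strand, to a loose NF-kB-like pattern, GGG followed after any 5 bases by CC. The IRF4 window is chr6:391502-391751 (plus strand), the BATF window chr14:75522219-75522468 (plus strand) and the TCF4 window chr18:55589812-55590061 (minus strand). TCF4 has 10 windows, of which 3 held the loose pattern, and the one printed was chosen because it holds a match.
IRF4: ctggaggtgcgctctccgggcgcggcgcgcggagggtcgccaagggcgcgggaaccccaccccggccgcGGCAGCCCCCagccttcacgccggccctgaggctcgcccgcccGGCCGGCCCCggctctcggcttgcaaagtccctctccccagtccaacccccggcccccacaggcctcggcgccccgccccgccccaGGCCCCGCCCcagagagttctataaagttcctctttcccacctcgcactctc
BATF: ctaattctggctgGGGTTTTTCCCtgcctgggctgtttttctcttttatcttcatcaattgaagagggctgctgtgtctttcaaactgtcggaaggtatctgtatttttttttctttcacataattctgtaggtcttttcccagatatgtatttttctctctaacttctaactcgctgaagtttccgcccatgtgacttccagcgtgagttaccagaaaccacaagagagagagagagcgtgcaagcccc
TCF4: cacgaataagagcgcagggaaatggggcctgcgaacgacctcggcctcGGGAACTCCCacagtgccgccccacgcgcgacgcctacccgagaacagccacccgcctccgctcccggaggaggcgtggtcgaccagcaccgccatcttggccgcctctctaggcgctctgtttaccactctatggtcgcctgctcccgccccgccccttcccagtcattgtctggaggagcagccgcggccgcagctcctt

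The table held promoters for 6 of the 7 genes, and CCND2 is named only. The IRF4 window held 3 matches, and the BATF window 2 that overlap each other over nearly their whole length. The match in the TCF4 window also met the stricter kappaB consensus, as did 1 further TCF4 window, while no window of IRF4, BATF, CYB5R2, PTPN1 or RHOF did. The loose pattern occurred in 54.4% of all 35116 promoter windows of this length and the stricter consensus in 9.96%. An IRF-like pattern, GAAA repeated after any 2 bases and searched on both strands, was found in 3 of the 10 windows of TCF4 and in none of the other 5 genes, and in 3.02% of all windows. These matches describe letters in a window and not sites of binding.

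CHUK, the target of the hairpin, had log2 ratios of -1.30 and -1.01 at 2 and 3 days with inhibitor, against -0.59 and -0.87 without. On the arrays with inhibitor in both channels its mean ratio was called lower (limma adjusted p = 0.013). Without inhibitor it did not pass (0.155). The file states neither the log base nor the direction of its ratios. Base 2 and doxycycline over no doxycycline were taken as likely, the second because the dyes are given as above and CHUK is then below 0 on all 4 arrays. The sign of CHUK thus helped to choose the direction and is no separate evidence of the knockdown. If the direction were the reverse, every sign in the text would turn. The tested genes had array medians between -0.06 and -0.01. Their median absolute deviation was 0.166 and 0.259 at 2 and 3 days with inhibitor, against 0.109 and 0.177 without.

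On the arrays with inhibitor in both channels, IRF4 was called lower with doxycycline than without. Its values were log2 ratios of -0.53 at 2 days and -0.86 at 3 days with inhibitor, against -0.28 and -0.66 without it. All 4 arrays were below 0, and the groups overlapped, since the 3-day array without inhibitor lay below the 2-day array with it. The mean was -0.70 ± 0.23 with inhibitor, 1.62-fold lower, and -0.47 ± 0.27 without, 1.39-fold lower (SD over 2 time points each). In limma's test of all 3589 genes the mean with inhibitor had an adjusted p of 0.0443 (95% interval -1.04 to -0.36), and the mean without inhibitor did not pass (adjusted p = 0.325, interval -0.81 to -0.13). These are whole-culture ratios, in which fewer cells of a type and less RNA per cell cannot be told apart.

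The 4 IRF4 probes were below 0 on all 4 arrays. The lowest, second in probe order, read -0.65 and -1.22 with inhibitor, against -0.40 and -0.80 without, and the first read -0.64 and -1.004 with inhibitor, against -0.26 and -0.45 without. The third probe differed in order from the rest at 3 days, with -0.44 with inhibitor and -0.77 without. The remaining probe read -0.32 and -0.78 with inhibitor, against -0.28 and -0.61 without. The spread between these probes was largest on the array of 3 days with 24 h of inhibitor, at an SD of 0.332, against 0.162 at 3 days without inhibitor. Among all tested genes, 4.0% and 3.1% had lower ratios than IRF4 at 2 and 3 days with inhibitor, against 8.7% and 3.6% without.

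CYB5R2, measured by 1 probe, was the second of the 7 genes called lower with doxycycline on the arrays with inhibitor. It read -0.51 and -0.81 at 2 and 3 days with inhibitor, against -0.14 and -0.39 without. The mean was -0.66 ± 0.21 with inhibitor, 1.58-fold lower, and -0.27 ± 0.18 without, with limma adjusted p-values of 0.0414 and 0.496.

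With inhibitor, then, 2 of the 7 genes were called lower, against 3.04% of all tested genes, and the 7 means all lay below 0, where 51.6% of all genes did. Their median was -0.43, and that of all genes was -0.01. The IRF4 call ended when incomplete probes were admitted (adjusted p = 0.0508). Both calls ended when arrays were centred on their medians (adjusted p = 0.0548 for IRF4 and 0.0546 for CYB5R2). Both also ended without either array of doxycycline alone (0.0793 and 0.0795) and without the 24 h inhibitor array. In that last fit the lone inhibitor array left stood at -0.53 for IRF4 and -0.51 for CYB5R2. When the day of doxycycline entered as a block, 5 of the 7 were called lower, against 14.1% of all genes in that fit, namely IRF4, CYB5R2, TCF4 (adjusted p = 0.0166), CCND2 (0.026) and RHOF (0.0399).

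**Figure D1:**
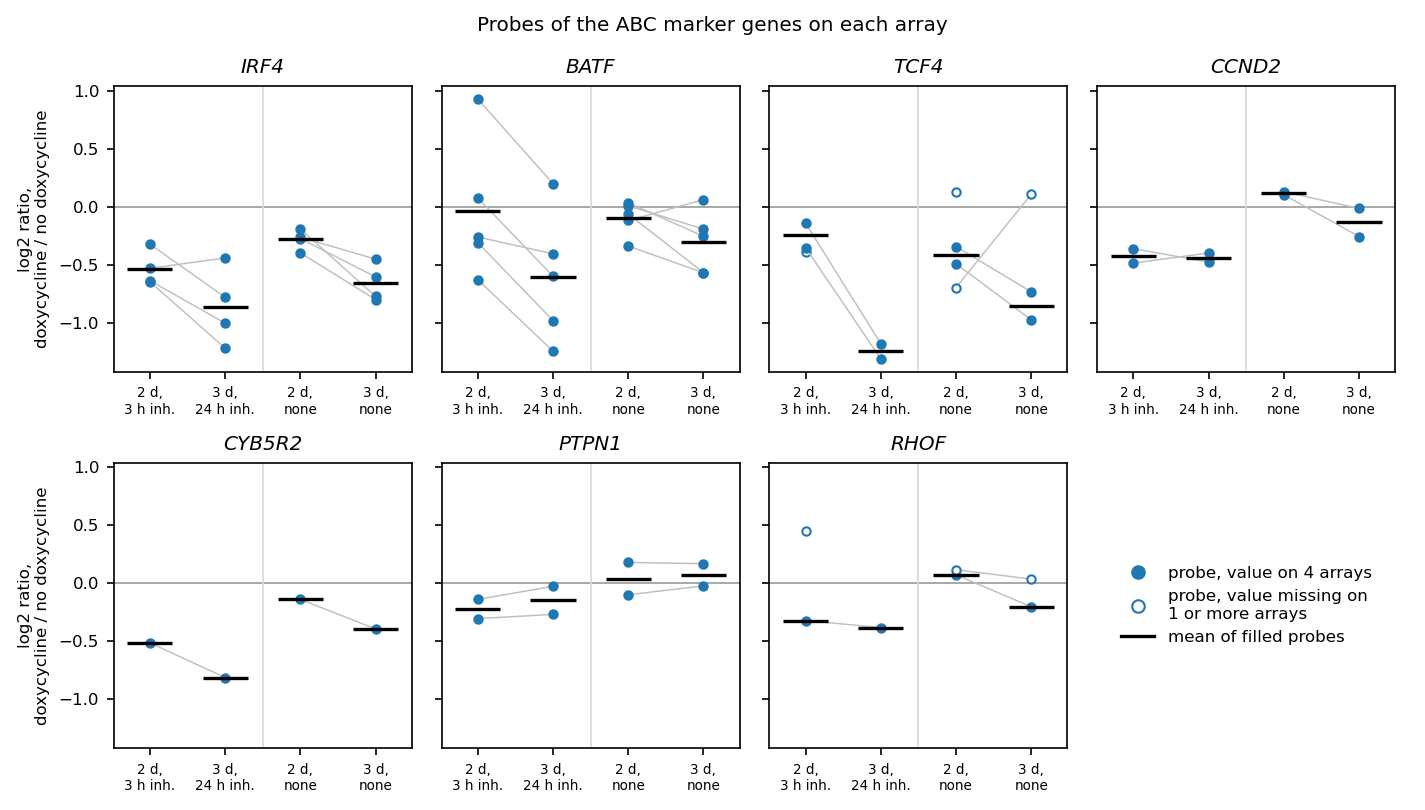
Log2 ratio of doxycycline over no doxycycline (vertical axis) for each probe of the 7 genes on the 4 arrays (horizontal axis), with inhibitor on the left of each panel and without on the right. Filled points are probes with a value on all 4 arrays and open points those without, grey lines join the days of 1 probe, and black bars are the means of the filled points. All 4 IRF4 probes lie below 0 on every array, while 1 BATF probe reads 0.93 at 2 days with inhibitor.

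BATF, the partner of IRF4, had probes that disagreed. Its 5-probe mean was -0.04 and -0.61 at 2 and 3 days with inhibitor, against -0.10 and -0.30 without. The mean over days was -0.32 ± 0.40 with inhibitor and -0.20 ± 0.15 without (adjusted p 0.227 and 0.687), and neither passed. The groups overlapped, and the 2-day inhibitor array, where the SD between probes was 0.595, was the least negative of the 4.

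The fifth BATF probe read -0.63 and -1.25 with inhibitor, against -0.34 and -0.57 without. The second read -0.31 and -0.98 with inhibitor, against -0.06 and -0.57 without. These 2 probes lay below 0 on all arrays and passed with inhibitor when probes were tested singly (limma adjusted p = 0.00866 and 0.0486). In that fit 7 of the 17 probes of the 7 genes were called lower, against 7.65% of all probes. The third probe ran the other way, at 0.93 and 0.20 with inhibitor, against -0.12 and 0.06 without (adjusted p = 0.0646 with inhibitor). The first probe read 0.08 and -0.60 with inhibitor, against 0.03 and -0.26 without, and the remaining one -0.26 and -0.41 with inhibitor, against 0.01 and -0.19 without. With the median of the probes in place of the mean, BATF still did not pass with inhibitor (adjusted p = 0.0888). Without the 3 h inhibitor array BATF stood at -0.61, and without the 24 h array at -0.04, each the value of the lone inhibitor array left.

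TCF4 had the lowest mean of the 7 genes in both groups and passed in neither. It read -0.25 and -1.25 at 2 and 3 days with inhibitor, against -0.42 and -0.85 without. The order of the groups turned with the day, as the inhibitor array was the higher of the pair at 2 days and the lower at 3 days. The mean was -0.75 ± 0.71 with inhibitor, 1.68-fold lower, and -0.64 ± 0.31 without, 1.55-fold lower, with limma adjusted p-values of 0.0957 and 0.383. Both probes with complete values were below 0 on all arrays, and tested singly with inhibitor they had limma adjusted p-values of 0.0735 and 0.0328. Of the tested genes 18.4% and 1.1% lay below TCF4 at 2 and 3 days with inhibitor, against 3.7% and 1.6% without. Without the 3 h array TCF4 stood at -1.25, and without the 24 h array at -0.25. Each is the value of the lone inhibitor array left, so the spread within that group is not measured.

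The incomplete TCF4 probes did not all follow. The first read -0.39 at 2 days with inhibitor, against -0.70 at 2 days and 0.11 at 3 days without, and had no value at 3 days with inhibitor. The second read 0.12 at 2 days without inhibitor, its single value. TCF4 has 10 promoter windows in RefSeq, and which transcripts each probe detects was not analysed here.

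CCND2, like RHOF and PTPN1, had a mean near 0 without inhibitor (-0.01, -0.07 and 0.06). Cyclin D2 partners CDK4 and CDK6 at the entry into the cell cycle. CCND2 read -0.42 and -0.44 at 2 and 3 days with inhibitor, against 0.12 and -0.14 without. Its means were -0.43 ± 0.01 with inhibitor and -0.01 ± 0.18 without, with adjusted p-values of 0.0777 and 0.979, and neither passed. Both probes were lower with inhibitor on each day, by -0.59 and -0.49 at 2 days and by -0.14 and -0.46 at 3 days. Of the 7 genes, CCND2 differed most in position at 2 days, where 7.2% of genes were lower with inhibitor and 79.9% without.

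RHOF, a GTPase gene linked to actin filaments, read -0.32 and -0.38 with inhibitor on its complete probe, against 0.07 and -0.20 without. Its mean was -0.35 ± 0.04 with inhibitor and -0.07 ± 0.19 without, and neither passed (adjusted p 0.116 and 0.891). With the incomplete probe admitted, the mean with inhibitor was -0.16 (adjusted p = 0.52). The second RHOF probe had the opposite sign, 0.45 at 2 days with inhibitor, against 0.12 and 0.04 at 2 and 3 days without, and had no value at 3 days with inhibitor. The RHOF values rest on the 1 complete probe.

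PTPN1, which encodes a phosphatase that removes phosphate from JAK kinases, had the smallest mean with inhibitor. It read -0.22 and -0.15 with inhibitor, against 0.04 and 0.07 without. The signs were opposite in the groups on every array. The means were -0.19 ± 0.05 and 0.06 ± 0.02, and neither passed (adjusted p 0.311 and 0.898). One probe read -0.14 and -0.03 with inhibitor, against 0.18 and 0.17 without, and the other -0.31 and -0.27 with inhibitor, against -0.10 and -0.02 without. Both probes were lower with inhibitor on both days.

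Without inhibitor, none of the 7 genes was called lower, as limma called 0% of all tested genes. At an unadjusted limma p under 0.05 there were 400 of 3589 genes, 354 of them lower. IRF4 and TCF4 were among them. IRF4 and TCF4 passed, with adjusted p 0.0341 each, once the spread of the arrays was equalised, and without either inhibitor array (0.0171 and 0.000268). Those fits called 5.07% and 5.88% of all genes lower. Of the 7 means, 6 lay below 0, where 55.9% of all genes did, and their median was -0.20 against -0.03 for all genes. By size alone, none of the 7 was more than 1.5-fold lower on both arrays of a group, with or without inhibitor, where 2.4% of all genes were with inhibitor and 0.919% without. With inhibitor, IRF4 came nearest, with its 2-day array short of that size.

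**Figure D2:**
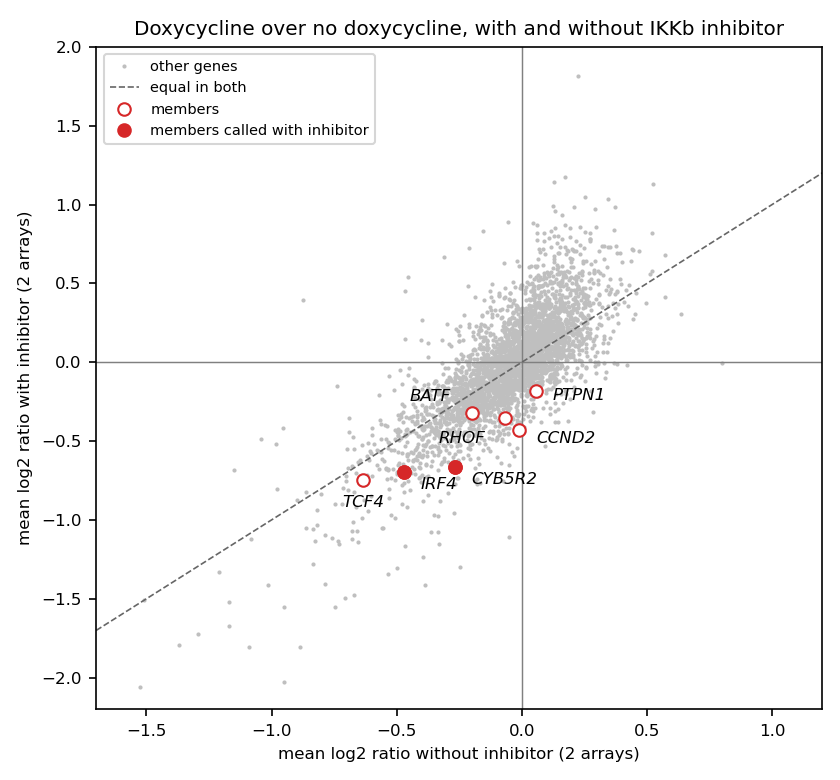
Mean log2 ratio of each of 3589 genes over the 2 arrays with inhibitor (vertical axis) and the 2 without (horizontal axis). Grey points are all other genes, red circles the 7 genes, filled where called with inhibitor. All 7 lie below the dashed line of equal ratios, TCF4 and BATF closest to it and CCND2 and CYB5R2 farthest.

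Setting the groups against each other compares the ratios with and without inhibition of IKKb. CHUK, the target of the hairpin, itself differed by -0.42 (95% interval -0.87 to 0.02). The inhibitor and a stronger fall of CHUK therefore cannot be told apart in this difference. All 7 genes had a mean difference below 0, where 45.4% of all genes did, with a median of -0.24 against 0.02 for all genes. CCND2 differed by -0.42 (SE 0.17, 95% interval -0.82 to -0.02), CYB5R2 by -0.40 (interval -0.84 to 0.04) and RHOF by -0.29 (interval -0.69 to 0.12). PTPN1 differed by -0.24 (interval -0.61 to 0.12), IRF4 by -0.23 (interval -0.71 to 0.25), BATF by -0.12 (interval -0.65 to 0.41) and TCF4 by -0.11 (interval -0.89 to 0.67). None was called by limma, where 0% of all genes were called lower, and the adjusted p of each was 0.989 or 0.999. At an unadjusted limma p under 0.05 there were 173 of 3589 genes, 58 of them lower with inhibitor, and CCND2 was among these. That count is near what such a threshold passes when no gene differs. The signs of BATF and TCF4 turned without the 24 h inhibitor array (0.16 and 0.39) and after scaling to equal spread (0.00262 and 0.21). The sign of TCF4 also turned without the 2-day array lacking inhibitor (0.11). The IRF4 difference was -0.02 after scaling, -0.06 without the 24 h array and -0.04 without the 2-day array lacking inhibitor, against -0.39 without the 3 h array and -0.42 without the 3-day array lacking inhibitor. That of CYB5R2 was -0.24 after scaling and -0.25 without the 24 h array, and that of RHOF was -0.16 with the incomplete probe and -0.15 without the 2-day array lacking inhibitor. The BATF difference was -0.02 without that last array.

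Set against the array of the same doxycycline day, 5 of the 7 genes were lower with 3 h of inhibitor and all 7 with 24 h. The differences at 2 days were -0.54 for CCND2, -0.39 for RHOF, -0.37 for CYB5R2, -0.26 for PTPN1 and -0.25 for IRF4, while BATF and TCF4 stood at 0.06 and 0.17. At 3 days they ran from -0.42 for CYB5R2 and -0.39 for TCF4 to -0.18 for RHOF. Over all genes, 50.2% were lower at 2 days and 41.3% at 3 days. At the level of probes, 13 of 17 were lower at 2 days and 15 of 17 at 3 days, where 51.1% and 43.7% of all probes were. There was 1 array per day and condition, so these differences have no test, and the time with inhibitor differed with the day.

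The days themselves also differed. Without inhibitor, 6 of the 7 genes were lower at 3 days than at 2 days, by -0.44 for TCF4, -0.38 for IRF4, -0.28 for RHOF, -0.25 for CCND2 and CYB5R2 and -0.21 for BATF, while PTPN1 stood at 0.03. With inhibitor, TCF4 differed most between the days, as its values above show, BATF was lower by -0.57, IRF4 by -0.33 and CYB5R2 by -0.30, and CCND2, RHOF and PTPN1 moved by -0.01, -0.06 and 0.07. The share of all genes lower at 3 days was 60.7% without inhibitor and 55.8% with it, and the wider spread of the 3-day arrays given above ran in the same direction. The part of that spread in these values was not tested.

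**Figure D3:**
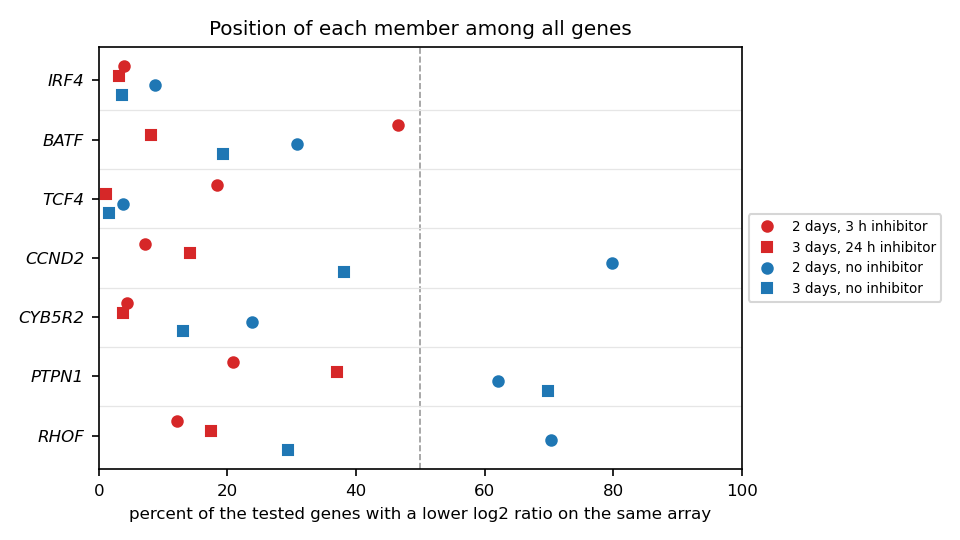
Percent of the 3589 tested genes with a lower log2 ratio on the same array (horizontal axis) for each of the 7 genes (vertical axis). Red symbols are arrays with inhibitor and blue without, circles 2 days and squares 3 days. IRF4 has at most 8.7% of genes below it on any array, while CCND2 has 7.2% at 2 days with inhibitor and 79.9% at 2 days without.

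The genes whose 4 log2 ratios lay closest to those of IRF4, by Euclidean distance, were IL2RG, the common gamma chain of cytokine receptors (distance 0.094), KBTBD8 (0.103), the glycolytic enzyme gene ALDOA (0.121), STRN, which encodes striatin (0.129), and RPE (0.137). IL2RG read -0.60 and -0.82 with inhibitor, against -0.29 and -0.71 without. Of the other 6 genes described here, CYB5R2 was closest to IRF4, in rank 62 of 3588 genes (distance 0.304), followed by TCF4 in rank 253. RHOF, CCND2 and BATF had ranks between 442 and 605, and PTPN1 had rank 1417. Over 4 arrays, this likeness is a description only.

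Most other measured markers of ABC lymphoma also lay below 0. Of 35 further markers listed, 26 were measured, 21 had a mean below 0 with inhibitor and 22 without, and the medians were -0.19 and -0.13. Among all genes, 51.6% were below 0 with inhibitor and 55.9% without. On the arrays with inhibitor, 3 of the 26 were called lower, where 3.04% of all genes were, and none was called higher. They were CCR7, a homing receptor (mean -0.97, limma adjusted p = 0.0354), STAT3, a factor activated by cytokines (-0.65, 0.0398), and the kinase gene PIM2 (-0.56, 0.0456). CFLAR, an inhibitor of caspase 8, stood at -0.60 (0.0532) with inhibitor and the chemokine gene CCL22 at -0.42 with and -0.95 without inhibitor (0.0928 and 0.0883).

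Among 28 partners, regulators and targets of IRF4, 23 were measured, with 17 below 0 with inhibitor and 15 without. On the arrays with inhibitor 3 were called lower. The same shares of all genes apply, 51.6% and 55.9% below 0 and 3.04% called lower, and the count below 0 without inhibitor lies near its share. NFKB1 and REL, which encode NF-kB subunits, stood at -0.73 (limma adjusted p = 0.0277) and -0.62 (0.0385), and IKZF1, which encodes the lymphoid factor Ikaros, at -0.63 (0.0392). IRF8, the family member closest in lymphoid role to IRF4, read -0.31 and -0.81 with inhibitor, against -0.28 and -0.51 without, and did not pass (0.0756). MYC, a target of IRF4 in myeloma, did not pass at -0.52 (0.0728). PRDM1, which drives plasma cell differentiation, read 0.06 and -0.08 with inhibitor, against 0.145 and 0.616 without, and did not pass in either group.

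In the E protein network around TCF4, 14 of 15 genes were measured. With inhibitor 1 was called lower and 1 higher, where 109 and 55 of all 3589 genes were. ID2 and ID3, inhibitors of E proteins, had ratios of opposite sign on the arrays with MLN120b in both channels. ID2 fell (-0.59 and -0.64 with inhibitor, against -0.02 and -0.40 without), with a mean of -0.62 and a limma adjusted p of 0.0479. ID3 rose (0.64 and 0.87 with inhibitor, against 0.18 and 0.10 without), with a mean of 0.76 and an adjusted p of 0.0253. The differences between the groups were -0.41 for ID2 and 0.62 for ID3, and neither was called (limma adjusted p = 0.989 each). TCF3, the E2A gene, stood at -0.29 with inhibitor (0.154) and POU2AF1, a B cell coactivator, at -0.48 (0.067). Among the 14 measured G1 phase genes around CCND2 no call was made. Of their means, 13 were below 0 with inhibitor and 11 without, where 51.6% and 55.9% of all genes were. CDK4 stood at -0.50 with inhibitor (0.111).

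Markers of other B cell states and other cell types were counted in the same way. Among all genes, 51.6% of means lay below 0 with inhibitor and 55.9% without. With inhibitor, 3.04% of all genes were called lower, and 55 of 3589 were called higher. Germinal-centre lymphoma markers had medians of 0.15 with and 0.08 without inhibitor, with 3 and 5 of 13 measured genes below 0 and none called. The medians of 8 plasma cell markers were 0.05 and 0.02, with 4 below 0 in each group and none called. Those of 13 B cell identity markers were -0.12 and -0.07, with 11 and 10 below 0. A mean below 0 was thus not particular to ABC markers. TNFRSF13C, the BAFF receptor gene, was called lower on the arrays with inhibitor (-0.83, limma adjusted p = 0.0209). T cell markers had medians of 0.13 and 0.08, with 0 and 2 of 12 below 0. NKG7, a granule protein gene, was called higher on the arrays with inhibitor (0.55, limma adjusted p = 0.0443). Only 4 myeloid markers were measured, with medians of 0.00 and 0.02. A value was missing on 1 or more arrays for 57.8% of T cell and 40% of germinal-centre probes, against 28.2% of probes of the further ABC markers. These arrays give ratios and no level of any marker, so the B cell identity of the culture could not be checked from them.

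Of the 10 list genes called with inhibitor, 0 passed when either array lacking inhibitor was left out. After scaling to equal spread 4 of the 10 passed, and with incomplete probes admitted also 4. Among those lost with incomplete probes were ID3 and REL (limma adjusted p = 0.172 and 0.123). After median centring 3 of the 10 passed, and with a block for the day all 10. Those fits called 109 and 908 of 3589 genes, against 164 in the main fit, so the block fit was the more permissive.

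**Figure D4:**
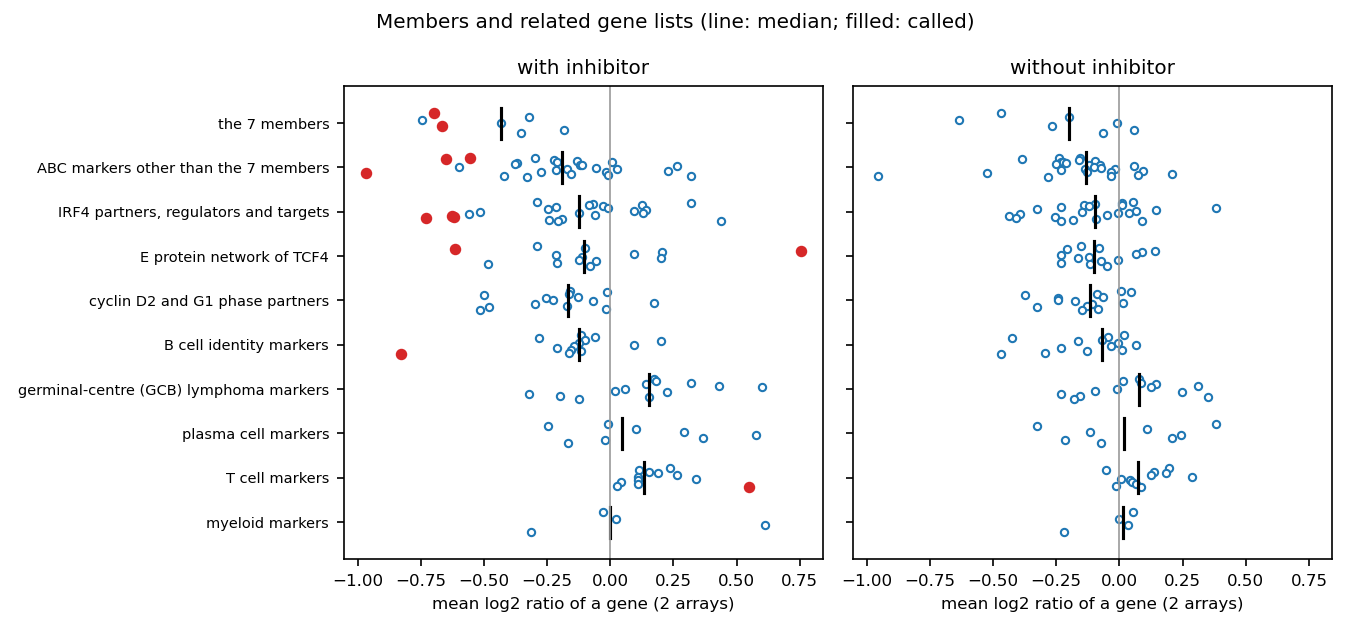
Mean log2 ratio (horizontal axis) of the 7 genes and of the measured genes of 9 related lists, with inhibitor (left) and without (right). Points are genes, filled red where limma called them, and black lines are list medians. The median of the 7 genes is -0.43 with inhibitor and -0.20 without, and the germinal-centre median lies above 0 in both.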

How the data were processed

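RNA was reverse transcribed with oligo dT primers and coupled to Cy3 or Cy5, per the labels' protocols. The deposited values give each probe 1 log ratio on each array, taken as log2. How the authors corrected background, normalized and filtered spots is not stated in the labels. Signal over background is therefore unknown, and precision is limited by the number of arrays. Probes were named through the platform annotation (10169 of 15246 with 1 symbol, 4 with several, 5073 with none), updated through gene identifiers to RefSeq names for 10128. Probes with a value on all 4 arrays were averaged per gene. Group means and their difference were tested with limma 3.58.1 (R 4.3.3, lmFit and eBayes, 2 residual and 4.98 prior degrees of freedom), two-sided, with Benjamini-Hochberg adjustment over 3589 genes and calls at an adjusted p under 0.05. The 2 arrays of a group are different days and may not be separate cultures, so p-values measure the spread between these arrays. The fit's estimate of a shift was checked on simulated data with independent arrays and equal spread for every gene. The real arrays differ in spread and day, so that check does not bear on the p-values. Named genes are the 7 members, CHUK, called genes and up to 2 others of each of 9 lists, and the 5 nearest to IRF4. The members and lists were chosen with earlier results of these data known. Alternatives were centring, scaling to equal spread, incomplete probes, single probes, a block for the day of doxycycline, leaving out each array, and an adjusted p under 0.10. The median of probes and the stricter promoter consensus were added after the data were seen.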

Additional observations from a re-analysis of the deposited data

Results flagged for a closer look

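PTPN1 was the 1 gene among those named whose log2 ratios had opposite signs in the groups on every array. It read -0.22 and -0.15 at 2 and 3 days with inhibitor, against 0.04 and 0.07 without. Other genes of the lists, which the naming rule left out, had the same pattern, and its share among all genes was not counted. The PTPN1 difference of -0.24 did not pass limma's test (adjusted p = 0.999), and the second of the 2 PTPN1 probes was below 0 on all 4 arrays.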

How the results depend on the processing

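With inhibitor, the 164 genes called became 109 after median centring, 794 as single probes, 908 with the doxycycline day as a replicate block and 590 at an adjusted p under 0.10, and ran from 34 to 858 with 1 array left out. Of the 7 genes, the 2 called became 0 after centring, 1 with incomplete probes, 5 with the block and 4 at 0.10, and ran from 0 to 4 with 1 array left out. Without inhibitor, the 0 called became 191 after scaling to equal spread (2 of the 7 genes), 70 as single probes, 56 with the block and 6 at 0.10, and 0 to 231 with 1 array left out (0 to 2 of the 7). For the difference, 0 became 4 with incomplete probes and 0 to 119 with 1 array left out, and none of the 7 was called under any alternative run. A fit that leaves out 1 array assumes that the lone array of its group varies like the other group. The mean of CCND2 without inhibitor changed sign after centring (0.02) and scaling (0.03) and ran from -0.14 to 0.12 with 1 array left out, and that of RHOF with incomplete probes (0.00525), with -0.20 to 0.07. The difference changed sign after scaling for BATF (0.00262) and TCF4 (0.21) and ran from -0.41 to 0.16 and from -0.61 to 0.39 with 1 array left out, TCF4 standing at 0.11 without the 2-day array lacking inhibitor. The cause of these changes was not tested. No direction changed for any of the 7 genes with inhibitor. The 1.5-fold count of 0 was also 0 at 2-fold in both groups.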
